A study of Homo sapiens with 30 samples.

Results

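FKBP5 and 9 genes of the chaperone machinery that folds steroid receptors were followed through the 10 conditions of an RNA-seq series on 2 prostate cancer cell lines. The 10 genes, FKBP5, FKBP4, HSP90AA1, HSP90AB1, HSPA8, HSPA1A, STIP1, PTGES3, DNAJB1 and HSPH1, were taken by symbol out of the 23710 gene symbols of the count files. In the FPKM files (fragments per kilobase of transcript, scaled to the mapped fragments of the sample) the values of all transcripts of a symbol were summed. The series holds 30 samples, 3 for each condition. In full serum (FS, 10% serum), V16D and MR49F cells received vehicle (DMSO) or 10 μM enzalutamide (MDV3100 in the labels), an antiandrogen drug. In charcoal-stripped serum (CSS), from which steroids are depleted, MR49F cells were kept for 72 h and then received vehicle (DMSO and ethanol), 10 μM enzalutamide, 1 nM dihydrotestosterone (DHT), 500 nM JQ-1, or JQ-1 together with 1 of the 2 ligands. Treatment lasted 24 h per the labels, although for the arms with JQ-1 the sources also refer to 3 days. JQ-1 blocks the bromodomains of the BET proteins, which read acetylated histones. V16D is a castration-resistant line derived from LNCaP cells. MR49F is an enzalutamide-resistant line derived from LNCaP cells in castrated mice given the drug and was taken off enzalutamide before the experiments. Each line is a single lineage, so a difference between them cannot be assigned to drug resistance. Cells were plated in triplicate wells per the labels, the methods call the samples of a condition biological replicates, and p-values measure the spread between these samples.

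A steroid receptor without hormone is kept ready to bind by HSP90, whose inducible alpha form is encoded by HSP90AA1 and whose constitutive beta form is encoded by HSP90AB1. HSPA8 (constitutive HSC70) and HSPA1A (inducible HSP70) act on the receptor earlier, with DNAJB1 as an HSP40 partner and HSPH1 (HSP110) as a nucleotide exchange factor. STIP1 (HOP) bridges HSP70 and HSP90, PTGES3 (p23) stabilises the late complex, and FKBP4 (FKBP52) and FKBP5 (FKBP51) are immunophilins that dock on HSP90 through tetratricopeptide repeats. FKBP5 is itself a well-known target gene of androgens and glucocorticoids, and many of the other genes respond to heat shock factor 1.

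Sequences known to bind steroid receptors and heat shock factor were searched for in the DNA of the members, and the matches are shown because they differ among the members. For steroid receptors the letters AGAACA, any 3 bases and TGTTCT, which read alike on both strands, were searched over the gene bodies in GRCh37. FKBP5, on the minus strand of chromosome 6 from 35541362 to 35696360, held 1 match, in intron 5 at 35569859 to 35569873, and the gene bodies of the other 9 members held 0. Of 18100 genome windows as long as FKBP5 (154999 bases), 3.02% held a match, and FKBP5 is the longest of the 10 genes. The site is printed on the strand of the gene with 20 bases on either side and the match in capitals.
FKBP5 intron 5, chr6:35569839-35569893, minus strand: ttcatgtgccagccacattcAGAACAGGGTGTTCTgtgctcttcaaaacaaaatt
For heat shock factor, 3 alternating units of GAA and TTC with 2 bases between neighbours, beginning with either unit, were searched for in the 250 bases before each RefSeq transcription start (GRCh38.p14). The element stood before 0.441% of 35116 such starts. Among the members it was found before 1 of the listed starts of HSP90AA1 and of HSP90AB1 and before the listed start of HSPA8, and not before those of FKBP5, HSPA1A, STIP1, PTGES3, DNAJB1 and HSPH1. FKBP4 had no entry. The 3 promoters are printed on the strand of the gene with the matches in capitals.
HSP90AA1, chr14:102087045-102087294, minus strand: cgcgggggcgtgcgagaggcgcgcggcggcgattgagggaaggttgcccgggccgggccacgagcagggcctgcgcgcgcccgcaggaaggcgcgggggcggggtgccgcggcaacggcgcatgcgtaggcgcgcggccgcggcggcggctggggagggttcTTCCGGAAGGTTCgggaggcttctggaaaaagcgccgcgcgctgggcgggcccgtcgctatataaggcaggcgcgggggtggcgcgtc
HSP90AB1, chr6:44247693-44247942, plus strand: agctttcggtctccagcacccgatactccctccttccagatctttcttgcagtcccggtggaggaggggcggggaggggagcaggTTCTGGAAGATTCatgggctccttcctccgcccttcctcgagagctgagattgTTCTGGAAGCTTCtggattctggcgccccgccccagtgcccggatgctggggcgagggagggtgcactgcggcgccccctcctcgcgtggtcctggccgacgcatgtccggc
HSPA8, chr11:123062137-123062386, minus strand: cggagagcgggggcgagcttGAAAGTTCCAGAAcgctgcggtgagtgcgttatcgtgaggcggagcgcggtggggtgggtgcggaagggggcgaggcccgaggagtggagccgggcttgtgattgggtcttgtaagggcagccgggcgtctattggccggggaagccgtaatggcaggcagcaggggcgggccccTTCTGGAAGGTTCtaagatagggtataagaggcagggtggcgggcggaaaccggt
A match describes letters and is not evidence of binding in these cells, and no match says only that these letters are not in the window.

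Between 13170504 and 21154962 reads per FS sample were counted on genes, and between 982130 and 1813262 per CSS sample. These were 73.0% to 77.8% and 5.13% to 7.66% of the reads counted on genes, as ambiguous or on no feature. Comparing MR49F vehicle samples of CSS with those of FS, 113 of 368 symbols ending in -AS1, which name antisense transcripts, were higher by over 2 in log2 CPM (reads scaled to the library total), against 5.47% of all symbols. By FPKM, 0 of the 368 were. The libraries keep the strand, no source used here says whether the counting used it, and the cause was not tested. In CSS the number of members called is therefore given from the counts and from FPKM. Exons of FKBP4 overlap genes of the opposite strand over 13.9% of their bases, and those of the other members over none. HSPA1A was counted at 0 or 1 read in every sample, and its FPKM are spread over 5 near-equal rows of one transcript. Only FPKM describe it, so 9 of the 10 members were tested by counts. Its level is uncertain, and whether its reads came from HSPA1A or from the related gene HSPA1B cannot be told. Mean FPKM of HSPA1B were 55.0 in V16D FS vehicle and 90.9 in MR49F FS vehicle. In CSS they were 62.7 with vehicle and 102 with JQ-1. The HSPA1A values below may therefore belong to either gene. MR49F FS vehicle replicate 1 stood apart from its replicates, with summed FPKM of 6.12e+05 against 7.62e+05 and 8.01e+05, and results that rest on it are also given without it. All 6 luminal prostate markers reported here were above 0 in every sample, whereas the FPKM of 8 markers of other cell types summed to 2.14 to 11.8, with the basal markers KRT5 at 0 in 24 samples and TP63 in 26. VIM, COL1A1 and SYP were above 0 in every sample, and SYP, a neuroendocrine marker, ranged from 0.585 to 9.55 FPKM, against a lowest value of 1.01 for the luminal KLK2.

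Only FKBP5 varied by a large factor among the 10 genes. Over the 4 FS conditions its mean FPKM differed 5.37-fold between the lowest and the highest, and that of the other 9 genes 1.08-fold (HSP90AA1) to 1.86-fold (HSPA1A). Over the 6 CSS conditions the range was 43.0-fold for FKBP5 and 1.38-fold (DNAJB1) to 1.88-fold (PTGES3) for the others. HSPA8 had the highest FPKM of the members in every condition, from 643 in CSS vehicle to 1282 in MR49F FS vehicle. The coefficient of variation between replicates was at most 10.6%, for HSPH1 in MR49F FS vehicle. Mean FKBP5 levels ran in the order CSS DHT (409 FPKM), CSS DHT with JQ-1 (290.3), MR49F FS vehicle (209), V16D FS vehicle (161), MR49F FS enzalutamide (91.1), CSS enzalutamide (47.6), V16D FS enzalutamide (38.9), CSS enzalutamide with JQ-1 (29.7), CSS JQ-1 (12.9) and CSS vehicle (9.50). No 2 neighbours in this order overlapped in their replicates. FS and CSS were separate experiments, so in levels set side by side the serum and the experiment cannot be told apart.

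**Figure D1:**
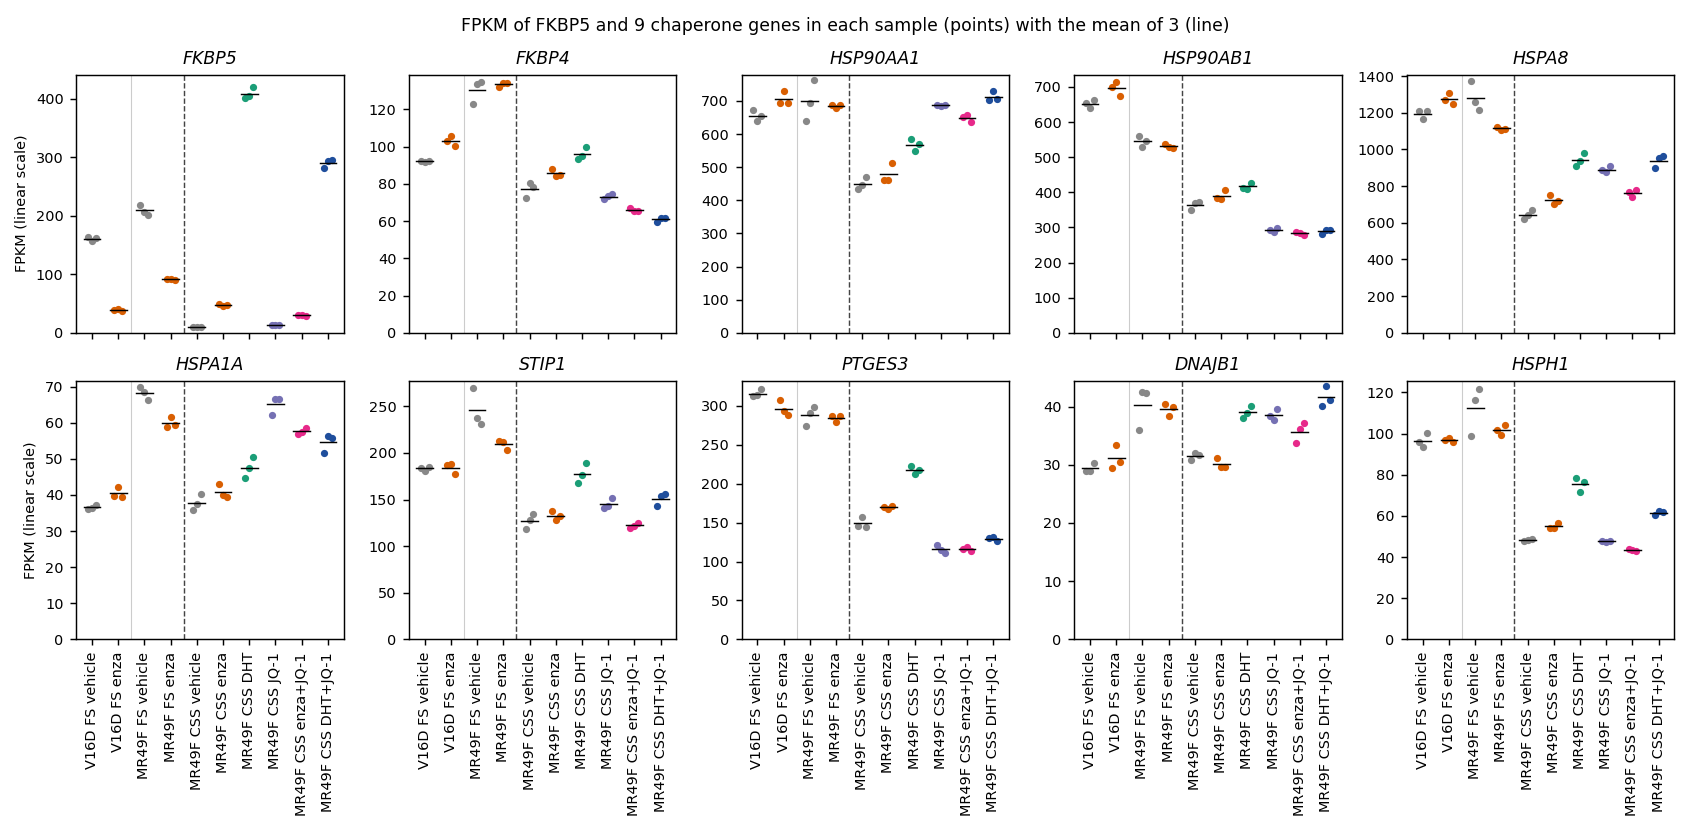
FPKM of each of the 10 genes in all 30 samples by condition (enza is enzalutamide). Points are samples, lines are means of 3, and the dashed line separates full serum from stripped serum. FKBP5 runs from 9.50 in CSS vehicle to 409 in CSS DHT, and the other genes vary at most 1.88-fold within an experiment.

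The first comparison asked how the antagonist acted where serum androgens were present. In V16D cells FKBP5 stood at 164, 157 and 162 FPKM with vehicle and at 39.6, 39.9 and 37.04 with enzalutamide. All treated samples lay below all controls. FKBP5 fell by 2.09 on the log2 scale of counts (95% interval -2.14 to -2.04, n = 3 per group, edgeR). In MR49F cells, which grow under the drug, FKBP5 stood at 218, 207 and 201 FPKM with vehicle and at 91.9, 91.7 and 89.7 with enzalutamide, again with no overlap. It fell by 1.24 (SE 0.053, adjusted p = 8.85e-07, edgeR's quasi-likelihood test), and without vehicle replicate 1 the log2 fold change was -1.18. Enzalutamide thus lowered FKBP5 in both lines, and less in MR49F, where the log2 fold change was higher by 0.84 (SE 0.063, adjusted p = 9.19e-09 for the interaction of line and drug, edgeR).

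Androgen-regulated reference genes differed more between the lines than FKBP5 did. KLK3, which encodes prostate-specific antigen, had 993, 974 and 945 FPKM with vehicle and 941, 937 and 946 with enzalutamide in MR49F FS, and its groups overlapped. Its log2 fold change of -0.09 (95% interval -0.21 to 0.03) did not pass the test. In the same samples TMPRSS2, a membrane serine protease, fell by 0.19 on the log2 scale by edgeR, and did not pass by limma on FPKM. In V16D the log2 fold changes of KLK3 and TMPRSS2 were -1.89 and -2.48, near that of FKBP5. Their interactions of line and drug were 1.79 and 2.28, with 95% intervals above that of FKBP5 (0.71 to 0.97), although genes were not tested against each other. The FPKM ratio of FKBP5 to KLK3 went from 0.215 ± 0.0042 to 0.0968 ± 0.0017 with enzalutamide in MR49F and from 0.316 ± 0.011 to 0.293 ± 0.0068 in V16D (mean ± SD, n = 3).

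In stripped serum, where enzalutamide and DHT were compared as ligands of the receptor in MR49F cells, FKBP5 moved in the opposite direction. It had 9.21, 9.14 and 10.2 FPKM with vehicle, the lowest level of the series, and 48.99, 45.5 and 48.2 with enzalutamide. The groups did not overlap, and FKBP5 rose by 2.57 on the log2 scale of counts (SE 0.13, adjusted p = 7.76e-11, edgeR) and by 2.21 on the log2(FPKM + 1) scale (adjusted p = 2.07e-08, limma). With DHT, the natural ligand, FKBP5 reached 400.4, 405 and 421 FPKM, 43.00-fold the vehicle mean. It rose by 5.70 on the log2 scale of counts (SE 0.11, adjusted p = 7.3e-22, edgeR) and by 5.29 on the log2(FPKM + 1) scale. The contrast of the enzalutamide responses in CSS and FS was 3.85 (SE 0.13, adjusted p = 2.04e-15, edgeR), in which serum and experiment cannot be told apart.

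FKBP5 separated the 2 ligands more widely than the reference genes did. DHT exceeded enzalutamide 8.59-fold in FKBP5 FPKM, with a log2 fold change of 3.12 from counts (95% interval 2.93 to 3.30). For KLK3 the log2 fold change between the ligands was 0.73 and for TMPRSS2 1.00, and neither interval reached that of FKBP5. KLK3 had 794, 809.9 and 796 FPKM with enzalutamide and 1212, 1235 and 1327 with DHT. Against vehicle, enzalutamide gave log2 fold changes of 1.54 for KLK3 and 2.06 for TMPRSS2.

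JQ-1 moved FKBP5 far less than it moved KLK3. With JQ-1 alone FKBP5 had 12.8, 12.5 and 13.5 FPKM, above all vehicle samples, and rose by 0.77 on the log2 scale of counts (adjusted p = 3.62e-05, edgeR) and by 0.41 on the log2(FPKM + 1) scale. KLK3 had 277, 282 and 289 FPKM with vehicle and 6.97, 7.61 and 6.45 with JQ-1. TMPRSS2 went from a mean of 23.3 to 8.28 FPKM. Its log2 fold change of -1.19 from counts was nearer in size to that of FKBP5 than to the -5.11 of KLK3. The FPKM ratio of FKBP5 to KLK3 went from 0.0336 ± 0.0014 to 1.86 ± 0.23 (mean ± SD, n = 3). Added to enzalutamide, JQ-1 took FKBP5 to 29.8, 29.95 and 29.3 FPKM, below all samples with enzalutamide alone, and FKBP5 fell by 0.74 (SE 0.1, adjusted p = 1.34e-06, edgeR). Added to DHT, it took FKBP5 to 281, 294 and 296 FPKM, below all samples with DHT alone, and FKBP5 fell by 0.47 (SE 0.067, adjusted p = 2.81e-07, edgeR). In these comparisons the log2 fold changes were -3.89 and -2.85 for KLK3 and -1.41 and -1.73 for TMPRSS2.

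Both ligands still raised FKBP5 under JQ-1. FKBP5 was 2.30-fold higher in FPKM with enzalutamide and JQ-1 than with JQ-1 alone, with a log2 fold change of 1.06 (95% interval 0.85 to 1.28). With DHT and JQ-1 it was 22.4-fold higher, with a log2 fold change of 4.47 (95% interval 4.32 to 4.63). The responses were smaller than without JQ-1, by 1.51 for enzalutamide (SE 0.19, adjusted p = 2.26e-06, edgeR) and by 1.24 for DHT (SE 0.15, adjusted p = 4.84e-08, edgeR). On the log2(FPKM + 1) scale these differences were -1.07 and -0.90, and both passed by limma. The same interactions of KLK3 had the opposite sign, at 1.22 and 2.26. Those of TMPRSS2 had the sign of FKBP5, at -0.22, which did not pass the test, and -0.53 (adjusted p = 0.0357, edgeR). The KLK3 values start from a low level with JQ-1 alone, a mean of 7.01 FPKM (20 to 25 reads). Under JQ-1 KLK3 had 45.9 FPKM with enzalutamide and 161 with DHT, against 800 and 1258 without JQ-1. The comparisons in CSS share control samples and are not independent of each other.

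**Figure D2:**
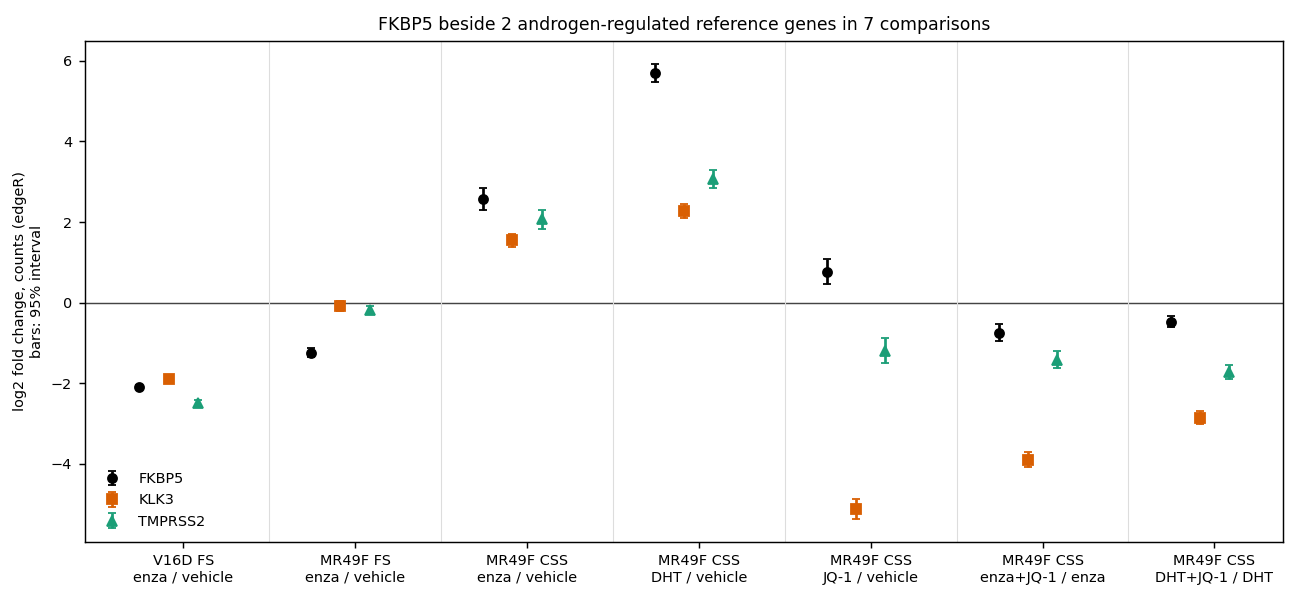
Log2 fold change from counts (edgeR, bars are 95% intervals, 3 samples per group) of FKBP5, KLK3 and TMPRSS2 in 7 comparisons, with enza for enzalutamide. FKBP5 lies at -1.24 with enzalutamide in MR49F FS, where KLK3 lies at -0.09, and at 0.77 with JQ-1 alone, where KLK3 lies at -5.11.

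One transcript carried nearly all of the FKBP5 signal. NM_004117 made up 95.2% to 98.4% of the summed FPKM of its 4 RefSeq transcripts in every sample. The balance of the 2 receptor immunophilins varied with the treatment. The FPKM ratio of FKBP5 to FKBP4 was 1.75 ± 0.032 in V16D FS vehicle and 0.378 ± 0.0076 with enzalutamide, and 1.61 ± 0.15 and 0.682 ± 0.015 in MR49F FS (mean ± SD, n = 3). In CSS it was 0.123 ± 0.0088 with vehicle, 0.555 ± 0.014 with enzalutamide, 4.26 ± 0.04 with DHT and 4.77 ± 0.027 with DHT and JQ-1, where both genes were lower than with DHT alone. Of the 10 conditions, FKBP5 exceeded FKBP4 in FPKM in the vehicle samples of FS and in the samples with DHT, with or without JQ-1.

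Between the lines with vehicle in FS, 7 of the 9 members tested by counts passed, near the background of 63.7% of all genes, and 7 of 10 passed by limma on log2(FPKM + 1), where 62.6% of genes did. HSPA1A, the inducible HSP70 gene, had 36.2, 36.4 and 37.3 FPKM in V16D and 69.8, 68.5 and 66.4 in MR49F, 1.86-fold higher with no overlap (0.88 on the log2(FPKM + 1) scale, adjusted p = 1.07e-05, limma). On the log2 scale of counts FKBP4 was higher in MR49F by 0.50, DNAJB1 by 0.45, STIP1 by 0.43, FKBP5 by 0.37 and HSPH1 by 0.22. HSP90AB1 was lower by 0.26 and PTGES3 by 0.13. HSP90AA1 (0.09) and HSPA8 (0.11) did not pass the count test. The call of PTGES3 was lost without any 1 V16D sample or without MR49F replicate 2, and HSP90AA1 passed without MR49F vehicle replicate 1 (0.14, adjusted p = 2.06e-05, edgeR).

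Enzalutamide in FS changed the other chaperone genes little. In V16D, 6 of 9 members passed by counts, where 37.5% of all genes did, and 3 of 10 by limma on FPKM, where 30.4% did. Besides FKBP5, FKBP4 rose by 0.13, HSP90AA1 by 0.07, HSPA8 by 0.06 and HSP90AB1 by 0.06 on the log2 scale of counts, and PTGES3 fell by 0.12. FKBP4 had 92.4, 91.5 and 92.4 FPKM with vehicle and 103, 105 and 100.2 with enzalutamide, with no overlap, and passed by FPKM as well, as did HSPA1A (0.14 on the log2(FPKM + 1) scale). The calls of HSP90AA1, HSP90AB1 and HSPA8 were lost without V16D enzalutamide replicate 2 or vehicle replicate 2, which left 3 of 9.

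In MR49F, 3 of 9 members passed by counts with enzalutamide in FS, where 8.48% of all genes did, and 1 of 10, FKBP5, by limma on FPKM, where 4.6% did. HSPA8 had 1371, 1259 and 1214 FPKM with vehicle and 1125, 1108 and 1112 with enzalutamide, and fell by 0.25 (adjusted p = 0.0304, edgeR). STIP1 had 269, 237 and 231 FPKM with vehicle and 213, 211 and 203 with enzalutamide, and fell by 0.28 (adjusted p = 0.0325, edgeR). Neither gene overlapped between the groups, and vehicle replicate 1 was the highest sample of both. The interaction of line and drug passed for 3 of 9 members by counts, where 6.95% of all genes did, at 0.84 for FKBP5, -0.32 for HSPA8 and -0.26 for STIP1. Without MR49F vehicle replicate 1 these values were 0.90, -0.23 and -0.16, and all 3 passed. The call of STIP1 in the interaction was lost without any 1 V16D sample or any 1 MR49F enzalutamide sample. By limma on FPKM it passed for FKBP5, HSPA8 and HSPA1A, 3 of 10, where 6.04% did.

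These small changes depended on single libraries. In MR49F FS vehicle replicate 1, FKBP5, HSPA8, STIP1, HSP90AB1 and HSPA1A were the highest of the 3 replicates and the other 5 members the lowest, with HSPH1 for example at 98.8, 116 and 121 FPKM. Without it 6 of 9 members passed with enzalutamide in MR49F FS and 8 of 9 in the interaction, PTGES3 being the exception. The SE was smaller in that fit, for HSPH1 with enzalutamide 0.030 instead of 0.058. The share of all genes that passed without this sample is not given here, so these counts do not set the members apart from other genes. HSPA8 (-0.17) and STIP1 (-0.19) kept their direction and their calls, and HSPH1 (-0.24, adjusted p = 4.83e-10, edgeR), DNAJB1 (-0.12) and HSP90AA1 (-0.11) gained them. Without any 1 enzalutamide sample or vehicle replicate 2, FKBP5 was the 1 member that passed in MR49F FS.

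**Figure D3:**
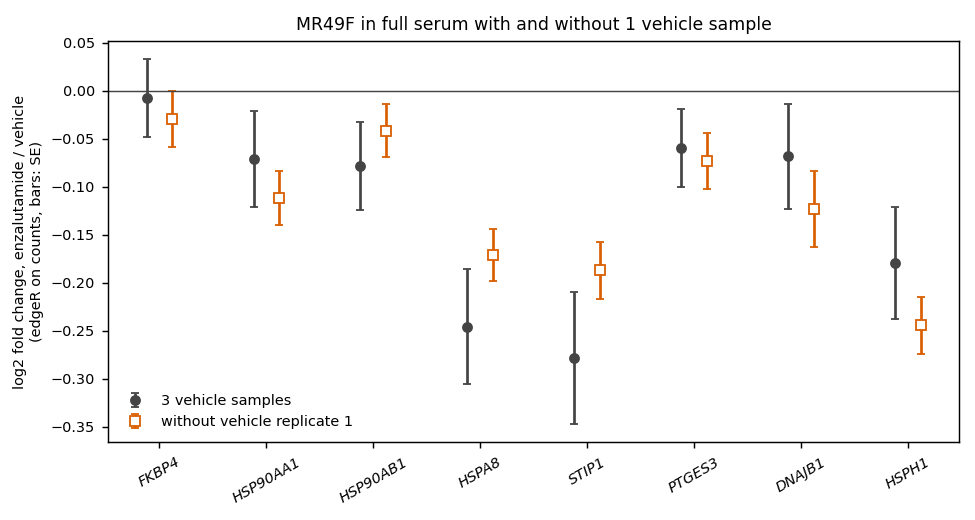
Log2 fold change of 8 chaperone genes with enzalutamide against vehicle in MR49F FS (edgeR on counts, bars are SE), with all samples and without vehicle replicate 1. HSPA8 moves from -0.25 to -0.17 and HSPH1 from -0.18 to -0.24.

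In CSS, FKBP5 was the 1 of 9 members that passed with enzalutamide by counts, where 7.26% of all genes did. By limma on FPKM 5 of 10 passed, where 38.7% of genes did. The additional 4 were FKBP4 (0.15 on the log2(FPKM + 1) scale), HSPA8 (0.17), PTGES3 (0.18) and HSPH1 (0.18), whose log2 fold changes from counts were 0.10, 0.22, 0.22 and 0.19. HSPH1 had 47.7, 48.5 and 48.8 FPKM with vehicle and 54.3, 54.1 and 56.5 with enzalutamide, with no overlap. The contrast of the enzalutamide responses in CSS and FS passed for 5 of 9 members by counts (11.4% of all genes) and 6 of 10 by FPKM (34.1%). Besides FKBP5 it was 0.51 for HSPA8, 0.43 for STIP1, 0.42 for HSPH1 and 0.32 for PTGES3 from counts. Without MR49F FS vehicle replicate 1 the same 5 passed, and without FS enzalutamide replicate 2, 3 did. The call of PTGES3 was lost without any 1 of 7 of the 12 samples.

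With DHT in CSS the whole group rose, which it did not do with enzalutamide. All 9 members tested by counts passed and rose, where 37.5% of all genes passed in either direction, and all 10 did by FPKM, where 72.1% passed. The median log2 fold change from counts was 0.57 over the 9 members and -0.01 over all genes tested. HSPA8 went from 619, 643 and 668 to 911, 939 and 982 FPKM and rose by 0.67 (SE 0.076, adjusted p = 1.24e-07, edgeR). HSPH1, its exchange factor, went from 47.7, 48.5 and 48.8 to 78.6, 71.8 and 76.6 FPKM and rose by 0.70 (SE 0.092, adjusted p = 1.43e-06, edgeR). No sample of either gene overlapped between the groups. On the same scale PTGES3 rose by 0.68, STIP1 by 0.57, DNAJB1 by 0.49, HSP90AA1 by 0.45, FKBP4 by 0.39 and HSP90AB1 by 0.28. HSPA1A went from 35.9, 37.5 and 40.1 to 44.7, 47.5 and 50.5 FPKM. Compared directly with enzalutamide, DHT gave higher values that passed for 8 of 9 members by counts (19.4% of all genes) and 9 of 10 by FPKM (57.4%), and HSP90AB1 was the exception in both (0.16 from counts). FKBP4 (0.28) lost its call without DHT replicate 2 or 3 or enzalutamide replicate 2.

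With JQ-1 alone the members moved in both directions. By counts 7 of 9 members passed, where 46.6% of all genes did, and by FPKM 8 of 10, where 75.1% did. The share by FPKM was near that of all genes. HSP90AA1 went from 433, 447 and 469.9 to 689, 686 and 688 FPKM and rose by 0.67 (SE 0.057, adjusted p = 7.87e-14, edgeR). HSP90AB1 went the other way, from 349.6, 371 and 373 to 294, 287 and 299 FPKM, and fell by 0.26 (SE 0.062, adjusted p = 0.00048, edgeR). Neither gene overlapped between the groups. Of the HSP70 genes, HSPA1A went from 35.9, 37.5 and 40.1 to 62.1, 66.6 and 66.6 FPKM, 1.72-fold, and HSPA8 rose by 0.60 on the log2 scale of counts. DNAJB1 rose by 0.49 and STIP1 by 0.23. PTGES3, with 146, 157 and 145 FPKM before and 122, 115 and 111 after, fell by 0.22. The call of PTGES3 was lost without vehicle replicate 1 or 2 or JQ-1 replicate 2 or 3, and that of STIP1 without JQ-1 replicate 3. FKBP4 (-0.04) and HSPH1 (0.08) passed neither test.

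**Figure D4:**
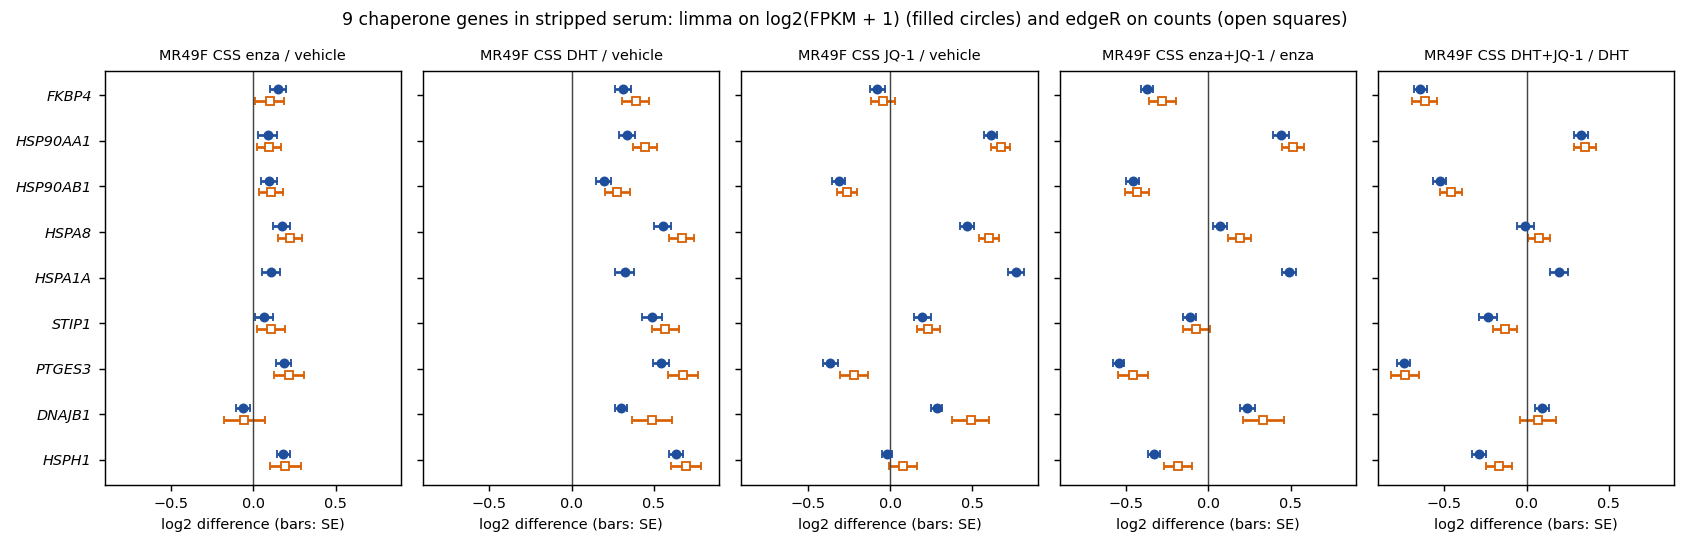
Log2 differences of the chaperone genes in 5 CSS comparisons (enza is enzalutamide), from limma on log2(FPKM + 1) (filled circles) and from edgeR on counts (open squares, none for HSPA1A), with SE as bars. With DHT against vehicle every gene lies above 0, and in the comparisons with JQ-1 HSP90AA1 (0.67 against vehicle) and HSP90AB1 (-0.26) lie on opposite sides.

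The opposite movement of the HSP90 genes was seen with either ligand present. The FPKM ratio of HSP90AA1 to HSP90AB1 in CSS was 1.23 ± 0.027 with vehicle, 1.23 ± 0.031 with enzalutamide and 1.36 ± 0.046 with DHT. It was 2.35 ± 0.045 with JQ-1, 2.29 ± 0.021 with enzalutamide and JQ-1 and 2.47 ± 0.04 with DHT and JQ-1 (mean ± SD, n = 3). The samples with JQ-1 lay between 2.28 and 2.50 and the CSS samples without it between 1.21 and 1.42. In FS the ratio was 1.01 ± 0.022 in V16D and 1.28 ± 0.13 in MR49F with vehicle. Added to enzalutamide, JQ-1 gave 7 of 9 members that passed by counts (45.1% of all genes) and 9 of 10 by FPKM (75.7%), with HSP90AA1 higher by 0.52 and HSP90AB1 lower by 0.43 on the log2 scale of counts. Added to DHT, it gave 5 of 9 by counts (54.7%) and 8 of 10 by FPKM (78.8%), both near the share of all genes, with HSP90AA1 higher by 0.36 and HSP90AB1 lower by 0.46. HSPA1A rose in both, by 0.49 and 0.19 on the log2(FPKM + 1) scale.

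**Figure D5:**
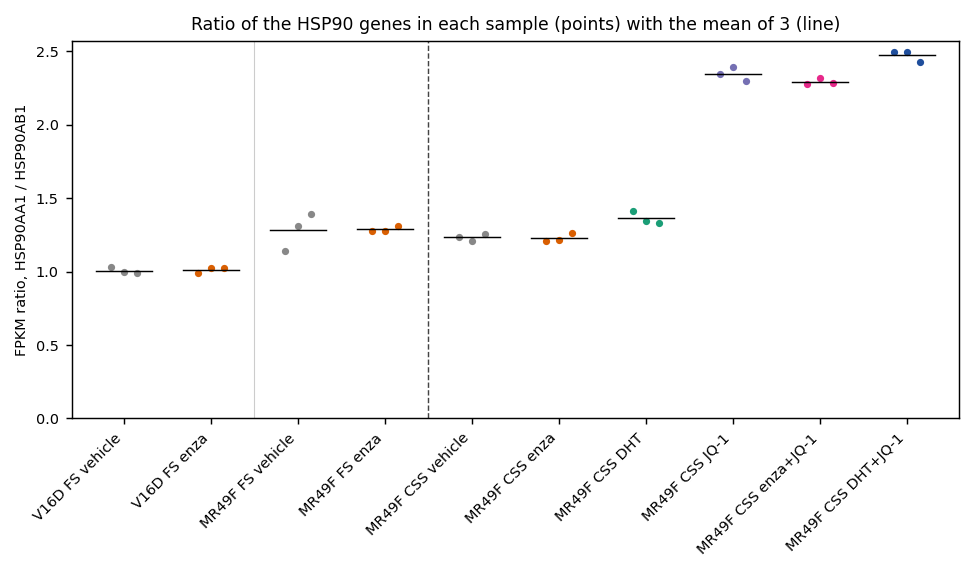
FPKM ratio of HSP90AA1 to HSP90AB1 in each of the 30 samples by condition (enza is enzalutamide), with the dashed line between full and stripped serum. The 9 samples with JQ-1 lie between 2.28 and 2.50, above all samples without it.

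PTGES3 and FKBP4 were lower with DHT and JQ-1 than with DHT. PTGES3 had 223, 212 and 218 FPKM with DHT and 129.9, 132 and 126 with DHT and JQ-1, and fell by 0.74 (SE 0.084, adjusted p = 2.55e-09, edgeR). FKBP4 had 93.3, 94.9 and 99.8 FPKM with DHT and 59.4, 61.5 and 61.8, its lowest level, with both, and fell by 0.62 (SE 0.076, adjusted p = 1.29e-08, edgeR). Neither overlapped. HSPA8 had 911, 939 and 982 FPKM with DHT and 898, 953 and 965 with both, which overlapped, and its log2 fold change of 0.07 did not pass the test. Added to enzalutamide, JQ-1 lowered PTGES3 by 0.46 and FKBP4 by 0.28.

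The response to DHT was smaller under JQ-1 for most members. The interaction passed for 6 of 9 members by counts, where 12.3% of all genes did, and for all 10 by FPKM, where 48.0% did, and every one of these values was negative. Besides FKBP5 it was -0.58 for FKBP4, -0.53 for HSPA8, -0.52 for PTGES3, -0.37 for STIP1 and -0.32 for HSP90AA1 from counts. When JQ-1 joined DHT, FKBP5, FKBP4 and PTGES3 fell, HSP90AA1 rose by 0.36, and HSPA8 (0.07) and STIP1 (-0.13) did not pass. JQ-1 alone had raised FKBP5 (0.77), HSP90AA1 (0.67), HSPA8 (0.60) and STIP1 (0.23), but not FKBP4 or PTGES3. Compared with JQ-1 alone, DHT with JQ-1 passed for 6 of 9 members by counts (22.1% of all genes) and 5 of 10 by FPKM (53.3%). HSPH1 had 47.9, 47.6 and 47.6 FPKM with JQ-1 and 60.5, 62.6 and 61.9 with DHT added, and rose by 0.46 (adjusted p = 1.76e-07, edgeR). FKBP4 fell by 0.18, whereas it rose with DHT in the absence of JQ-1. Without JQ-1 replicate 2, or without DHT with JQ-1 replicate 2, the count by edgeR was 3 of 9, and FKBP4, HSP90AA1 and HSPA8 were lost. FKBP4 also lost its call without JQ-1 replicate 3 or DHT with JQ-1 replicate 1.

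For enzalutamide the interaction with JQ-1 passed by counts for FKBP5 and for HSPA8 (-0.41, adjusted p = 0.0105, edgeR), 2 of 9 members, where 0.895% of all genes did, and by FPKM for 7 of 10, where 19.2% did. Compared with JQ-1 alone, enzalutamide with JQ-1 passed for 3 of 9 members by counts (4.5% of all genes) and 6 of 10 by FPKM (15.9%). HSPA8 had 886, 876 and 911 FPKM with JQ-1 and 766, 742 and 779 with both, and fell by 0.19 on the log2 scale of counts. STIP1 had 141, 143 and 151 FPKM with JQ-1 and 119.8, 122 and 125 with both, and fell by 0.19. Neither gene overlapped between these groups. HSPA8 lost this call without JQ-1 replicate 1, and STIP1 without JQ-1 replicate 2 or 3 or enzalutamide with JQ-1 replicate 1. Without enzalutamide with JQ-1 replicate 2, FKBP5 was the 1 member that passed either test by counts.

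Further genes of the pathway, listed by function, were read from the same count fits alone, without a test by FPKM. Overlap with genes of the opposite strand was not checked for them. Of 20 other cochaperones, 18 were tested in CSS, and 10 rose and 0 fell with DHT, where 37.5% of all genes passed in either direction. Their median log2 fold change was 0.33, against -0.01 over all genes, and those that rose included CHORDC1 (0.93), CDC37 (0.72), which brings kinases to HSP90, BAG1 (0.71), an HSP70 exchange factor, and AHSA1 (0.70), which stimulates the HSP90 ATPase. When JQ-1 joined DHT, 2 of the 18 rose and 9 fell, with 54.7% of all genes called in that comparison. Those that fell included AHSA1 (-0.90), BAG1 (-0.86) and NUDC (-0.77), and UNC45A, a myosin chaperone, rose by 0.66. Of 13 further heat shock genes, 8 were tested with JQ-1 alone, and 2 rose and 1 fell. That is a smaller share than the 46.6% of all genes that passed. HSPA4L (1.07, SE 0.14) and BAG3 (0.74, SE 0.10) rose. HSPE1, the mitochondrial cochaperonin, fell by 1.63 with a wider SE of 0.36. With DHT, 2 of these 8 rose and 2 fell, with a median of -0.44. HSPB1, a small heat shock protein gene, fell in CSS with enzalutamide (-0.52), with DHT (-0.31) and with JQ-1 added to DHT (-1.15). Of 12 other FKBP genes, 8 were tested with DHT, of which FKBP2 rose (0.63) and FKBP9 fell (-1.54), against the 37.5% of all genes that passed. Between the lines FKBP10 (-3.65) and the collagen chaperone gene SERPINH1 (-3.11) were lower in MR49F, and FKBP11 (1.65) and CRYAB (2.89) higher.

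Some of the steroid receptors that these chaperones serve were near 0. The glucocorticoid receptor gene NR3C1 was at most 0.0554 FPKM in any sample, and the progesterone receptor gene PGR at most 0.117. The mineralocorticoid receptor gene NR3C2 had 0.94 to 2.89 FPKM.

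The genes most like FKBP5 over the 10 condition means of log2(FPKM + 1), centred within V16D FS, MR49F FS and MR49F CSS, were LRIG1 (Pearson r = 0.992), TPM1 (0.987), MPZL1 (0.986), LAMC1 (0.986) and RAB4A (0.983), among 2166 symbols with a mean of at least 5 FPKM and a centred range of at least 1. The value was 0.564 for KLK3 and 0.781 for TMPRSS2. LRIG1 had mean FPKM of 12.65 with vehicle, 23.65 with enzalutamide and 90.57 with DHT in CSS. The genes most like HSP90AA1 were FAM166A (0.989), TUBB4B (0.982), ARRDC1 (0.981), ASMTL (0.9765) and BRD2 (0.975), itself a BET family gene, which had mean FPKM of 86.1 with vehicle and 256 with JQ-1 in CSS. These r describe 10 means that share controls and experiments.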

How the data were processed

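Strand-specific RNA-seq libraries of 30 samples were analysed. Per the labels and methods, the authors aligned reads to hg19 with TopHat2 2.0.9, counted reads per gene symbol with HTSeq (strand setting not given in the sources used here) and deposited these raw counts, and with Cufflinks 2.1.1 made the deposited FPKM, 1 value for each RefSeq transcript. In the deposited count files, rows that name no gene held 36.5% to 41.6% of reads in full serum and 93.3% to 95.5% in stripped serum, and were left out of library sizes and tests. The 10 genes and the pathway lists were chosen with earlier results of these data known. Some genes are not reported here.

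For the counts, edgeR 4.0.16 was run under R 4.3.3 (TMM, quasi-likelihood test, minimum count 10, minimum total 15) on the samples of each of 15 comparisons, over all genes, with Benjamini-Hochberg adjustment and a threshold of 0.05. FPKM were summed per symbol and tested with limma 3.58.1 as log2(FPKM + 1), for symbols of at least 1 FPKM in 3 samples of the fit. That scale understates changes of low genes. DESeq2 1.42.0 served as an alternative, and the scripts were tested on simulated data. Deviations of same-numbered samples from their group means had a lowest correlation of a pair of at most 0.02 in every comparison. Their mean correlation was highest with enzalutamide against vehicle in CSS, at 0.089, against -0.044 for samples of other numbers. Numbers are not known to pair the samples and were not used as pairs, and a fit with a replicate block is given as an alternative. Named list genes were up to 4 per comparison with the largest log2 fold change among those called without overlap of replicates in CPM. A 3 against 3 design cannot go below p = 0.1 in a permutation test of a single gene, and none was used. Coordinates are in GRCh37 for the gene bodies and in GRCh38.p14 for the RefSeq promoters.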

Additional observations from a re-analysis of the deposited data

Results flagged for a closer look

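The test of the difference between 2 groups' responses (edgeR's quasi-likelihood test, adjusted over all genes) passed for the following members. The response to enzalutamide in full serum differed between MR49F and V16D by 0.842 for FKBP5 (SE 0.0628, adjusted p = 9.19e-09), -0.317 for HSPA8 (adjusted p = 0.00416) and -0.262 for STIP1 (adjusted p = 0.0464) on the log2 scale. In stripped serum, the response to enzalutamide differed with and without JQ-1 by -1.51 for FKBP5 (SE 0.186, adjusted p = 2.26e-06) and -0.409 for HSPA8 (adjusted p = 0.0105). The response to DHT differed with and without JQ-1 by -1.24 for FKBP5 (SE 0.154, adjusted p = 4.84e-08), -0.58 for FKBP4 (adjusted p = 4.42e-05), -0.53 for HSPA8 (adjusted p = 1.43e-05), -0.518 for PTGES3 (adjusted p = 0.0013), -0.367 for STIP1 (adjusted p = 0.00961) and -0.319 for HSP90AA1 (adjusted p = 0.00583). The response of MR49F to enzalutamide differed between stripped and full serum by 3.85 for FKBP5 (SE 0.128, adjusted p = 2.04e-15), 0.512 for HSPA8 (adjusted p = 0.000542), 0.429 for STIP1 (adjusted p = 0.00723), 0.417 for HSPH1 (adjusted p = 0.00889) and 0.319 for PTGES3 (adjusted p = 0.0215), where serum and experiment cannot be told apart.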

How the results depend on the processing

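Of 2149 alternative values of the members' log2 fold changes, 1943 kept their side of the threshold, 131 lost the call and 75 gained it. Of those called in the main fit or in the alternative, 0 changed sign. Values called in neither could change sign and count as kept, as for STIP1 with enzalutamide in V16D (-0.0247 from counts, 0.0067 by limma on FPKM). For FKBP5 242 of 244 kept their direction and their side of the threshold. Both exceptions arose where variance-stabilised counts were compared by an equal-variance two-group test, for JQ-1 against vehicle (0.534, adjusted p = 0.0505) and for enzalutamide with JQ-1 against JQ-1 (0.468, adjusted p = 0.137). The number of members called stayed within 1.5 times in 199 of 244 alternatives. Otherwise it was as follows, and the causes were not tested. By limma on FPKM, with a pseudocount of 1, of 0.1 or with no filter, it was 3 for enzalutamide in V16D, 1 in MR49F FS, 5, 5 and 3 in CSS, 8 for JQ-1 added to DHT, 6 for enzalutamide with JQ-1 against JQ-1, 7, 7 and 6 for the interaction of enzalutamide and JQ-1 and 10 for that of DHT and JQ-1. By the equal-variance two-group test it was 3 for enzalutamide in V16D, 1 in MR49F FS, 3 for JQ-1, 4 for JQ-1 added to enzalutamide, 0 for enzalutamide with JQ-1 against JQ-1 and 2 for DHT with JQ-1 against JQ-1. That test took only genes with a variance above the median, and members below it were not tested. For enzalutamide in V16D it tested 4 members, against 9 in the main fit. The share of all genes that passed it is not given here. With all groups of an experiment in one fit it was 3 for enzalutamide in V16D, 2 in CSS, 1 for enzalutamide with JQ-1 against JQ-1 and 3 for DHT with JQ-1 against JQ-1.

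With a replicate block, the number called with enzalutamide in CSS was 2, as HSPA8 (0.22, adjusted p = 0.0098, edgeR) gained a call, FKBP4 with DHT against enzalutamide lost one (adjusted p = 0.0727, edgeR) and HSPH1 with JQ-1 added to DHT gained one (adjusted p = 0.0417, edgeR). The block changed no other count by over 1.5 times, and the numbers are not known to pair the samples.

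With each sample left out in turn, 67 of 1026 values lost the call. The share of all genes that passed in these fits is not given here. The number called ranged over 3 to 6 for enzalutamide in V16D, 1 to 6 in MR49F FS, 6 to 8 between the lines, 2 to 8 for the interaction of line and drug, 1 to 1 for enzalutamide in CSS, 9 to 9 for DHT, 7 to 8 for DHT against enzalutamide, 5 to 7 for JQ-1, 5 to 7 for JQ-1 added to enzalutamide, 5 to 6 for JQ-1 added to DHT, 1 to 3 and 3 to 6 for the ligands against JQ-1 alone, 1 to 2 and 6 to 7 for their interactions with JQ-1 and 3 to 5 for that of serum and enzalutamide. The stripped serum counts rest on 982130 to 1813262 reads on genes, and in every stripped serum comparison a larger share of genes passed by FPKM than by counts.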
